A study of Mus musculus with 30 samples.

Results

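The genes described here are 10 members of the BCL2 family, whose rows were found by symbol. They are the anti-apoptotic *Bcl2*, *Bcl2l1*, *Bcl2a1a*, *Bcl2a1b*, *Bcl2a1d* and *Mcl1*, the effectors *Bax* and *Bak1*, and the BH3-only genes *Bcl2l11* and *Bid*. All 10 symbols were found in the expression table, on 11 of its 14225 transcript rows, since *Bcl2l11* had 2 rows. None of the 11 rows was at 0 in any of the 30 libraries. The values are TPM, the abundance of a transcript scaled by its length and by the size of the library, so that levels of different genes can be set side by side.

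The RNA came from microglia isolated from the whole brain of C57BL/6J mice with beads against CD11B. Offspring of dams given saline (Saline) or the viral RNA mimic poly(I:C) (maternal immune activation, MIA) in mid-gestation were taken at E17, P7, P20 and P60. At P60 the Saline and MIA offspring had received either control chow throughout (CTRL) or, from weaning age, chow with the CSF1R inhibitor PLX5622 and then control chow again (MG-REP), which first depletes the microglia and then lets them repopulate the brain. Each of the 10 groups had 3 libraries. An E17 library held the pooled brains of 1 litter, a P7 library a pool of 3 brains, and a P20 or P60 library 1 brain. CD11B is carried by other myeloid cells as well, so the beads do not separate microglia from border macrophages, monocytes or neutrophils.

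Proteins of the BCL2 family decide whether the outer membrane of the mitochondria is opened, the step that commits a cell to intrinsic apoptosis. BAX and BAK1 form the pore, anti-apoptotic members hold them and the BH3-only proteins in check, and BH3-only proteins such as BIM, the product of *Bcl2l11*, and BID relay the death signals. Microglia depend on survival signals through CSF1R, and A1, the protein of the *Bcl2a1* genes, is known as an NF-kB-induced survival factor of myeloid cells.

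The anti-apoptotic A1 protein is encoded in the mouse by near-identical copies on chromosome 9. The copies measured here were *Bcl2a1d* at chr9:88723288-88731850 on the minus strand, *Bcl2a1a* at chr9:88956920-88962416 on the plus strand and *Bcl2a1b* at chr9:89199273-89207838 on the plus strand (RefSeq, GRCm38.p6). Their transcripts were 97.9% identical between *Bcl2a1a* and *Bcl2a1b*, 93.7% between *Bcl2a1a* and *Bcl2a1d* and 93.9% between *Bcl2a1b* and *Bcl2a1d*. The open reading frame of each was 519 bases long and differed among them at 12 positions. The first 120 bases of the coding sequence are shown because 7 of these 12 positions, in capitals, lie there.
*Bcl2a1a*: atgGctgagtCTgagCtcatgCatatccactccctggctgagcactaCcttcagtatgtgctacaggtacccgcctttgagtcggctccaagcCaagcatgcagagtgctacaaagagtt
*Bcl2a1b*: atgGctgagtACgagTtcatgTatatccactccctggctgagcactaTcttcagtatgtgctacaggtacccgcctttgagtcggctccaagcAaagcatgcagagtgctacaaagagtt
*Bcl2a1d*: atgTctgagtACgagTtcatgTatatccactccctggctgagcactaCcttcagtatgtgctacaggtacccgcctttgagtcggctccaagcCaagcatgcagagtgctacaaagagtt
Of all possible reads of 40 bases, the read length of the study, 25.5% of those from *Bcl2a1a*, 16.3% of those from *Bcl2a1b* and 15.4% of those from *Bcl2a1d* occurred in no other gene. The way in which the authors' counting shared the remaining reads was not given in the sources used here, so the split among the copies is uncertain and the sum of the 3 copies is given beside it.

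The 250 bases before the start of each copy are shown because all 3 copies rose after repopulation in Saline offspring, as described below. Capitals mark the core GAGGAA of the site of PU.1, the factor that specifies macrophages, or its reverse complement TTCCTC.
*Bcl2a1a* upstream, chr9:88956670-88956919, plus strand: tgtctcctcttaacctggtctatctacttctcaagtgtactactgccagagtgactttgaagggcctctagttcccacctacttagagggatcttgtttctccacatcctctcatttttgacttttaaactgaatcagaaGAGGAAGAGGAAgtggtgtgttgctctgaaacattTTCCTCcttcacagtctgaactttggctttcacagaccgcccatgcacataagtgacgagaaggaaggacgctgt
*Bcl2a1b* upstream, chr9:89199023-89199272, plus strand: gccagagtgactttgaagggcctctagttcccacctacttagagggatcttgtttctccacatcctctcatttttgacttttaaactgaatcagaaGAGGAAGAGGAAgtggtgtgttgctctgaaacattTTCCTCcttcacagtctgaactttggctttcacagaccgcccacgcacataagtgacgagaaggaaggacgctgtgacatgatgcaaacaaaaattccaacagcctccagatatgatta
*Bcl2a1d* upstream, chr9:88731851-88732100, minus strand: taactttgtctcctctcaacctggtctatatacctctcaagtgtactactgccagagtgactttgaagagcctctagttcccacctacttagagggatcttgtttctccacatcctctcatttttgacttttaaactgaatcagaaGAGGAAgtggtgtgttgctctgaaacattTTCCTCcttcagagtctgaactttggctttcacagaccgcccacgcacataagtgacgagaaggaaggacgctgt
*Bcl2a1a* held the core 3 times, at -110, -104 and -75 from the annotated start. *Bcl2a1b* held the same block at -154, -148 and -119, farther from its own start, and once more at 3, beyond the stretch shown. *Bcl2a1d* held it at -104 and -75. Over 300 bases around the start, the window searched on both strands, this core occurred in 28.3% of 32851 RefSeq promoters. Among the other members it also lay in the windows of *Bcl2* (-29), *Bak1* (-20) and *Bid* (-10). The GC box GGGCGG, which overlapped none of these, was found in the windows of all 3 copies and in 35.7% of all promoters. TATAAA (13.6% of all promoters) and the AP-1 site TGACTCA (5.20%) occurred in none of the windows of the members, and the NF-kB consensus (4.51%) in only 1, a *Bcl2l1* window. These are matches of letters, and no binding was measured.

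The libraries summed to between 995495 and 998012 TPM and were estimated, from the steps between low values, to hold about 7880000 to 12780000 reads (median 10410000). All 7 microglia markers (*C1qa*, *Csf1r*, *Cx3cr1*, *Fcrls*, *P2ry12*, *Tmem119* and *Sall1*) were present in every library, the lowest value being 53.6 TPM for *Sall1*. The sexes were not given on the labels. *Xist* was at 159 to 193 TPM with genes of the Y chromosome at no more than 0.62 TPM in all P20 and MG-REP libraries, whereas replicates 2 and 3 of both P60 CTRL groups had *Xist* at 0.14 to 0.29 TPM and Y genes at 268 to 318 TPM summed. Sex and repopulation were therefore partly confounded at P60. Y genes stood at 125 to 285 TPM beside *Xist* in the E17 and P7 libraries, except replicate 2 of P7 MIA (0.1 TPM). Sex and age were thus partly confounded as well. For part of the results, values or counts from a fit with *Xist* as a covariate are given. As these are bulk libraries, fewer cells of a type and less RNA per cell cannot be told apart.

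*Mcl1*, which encodes a short-lived survival protein of many blood cells, was the most abundant member. It ranged from 798 to 1466 TPM and was 88th of all 14225 rows by its mean. *Bcl2a1b* followed at 145 to 771 TPM, then *Bax* at 148 to 409 TPM, *Bak1* at 59.1 to 274 TPM, *Bid* at 40.5 to 104 TPM and *Bcl2a1d* at 23.1 to 236 TPM. *Bcl2a1a* ranged from 4.20 to 128 TPM and *Bcl2*, the founder of the family, from 5.58 to 17.4 TPM. The *Bcl2l11* rows were low, at 0.71 to 3.04 TPM (NM_001284410) and 0.26 to 2.40 TPM (NM_207680). *Bcl2l1*, which encodes BCL-XL, was lowest at 0.12 to 1.30 TPM, or an estimated 0.965 to 10.8 reads per library. In the GENCODE annotation the *Bcl2l1* row is 1 of 9 transcripts, and only 2.40% of its 40-base reads were unique to it. Its level need not be that of the gene. By that annotation the same holds for the rows of *Bax* (7.49% of reads unique to the transcript), *Bak1* (7.54%) and *Bid* (18.7%), which are 1 of 6, 4 and 5 transcripts. RefSeq, whose identifiers the rows carry, held 6 curated transcripts of *Bcl2l1*, 2 of *Bak1* and 1 each of *Bax* and *Bid*.

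**Figure D1:**
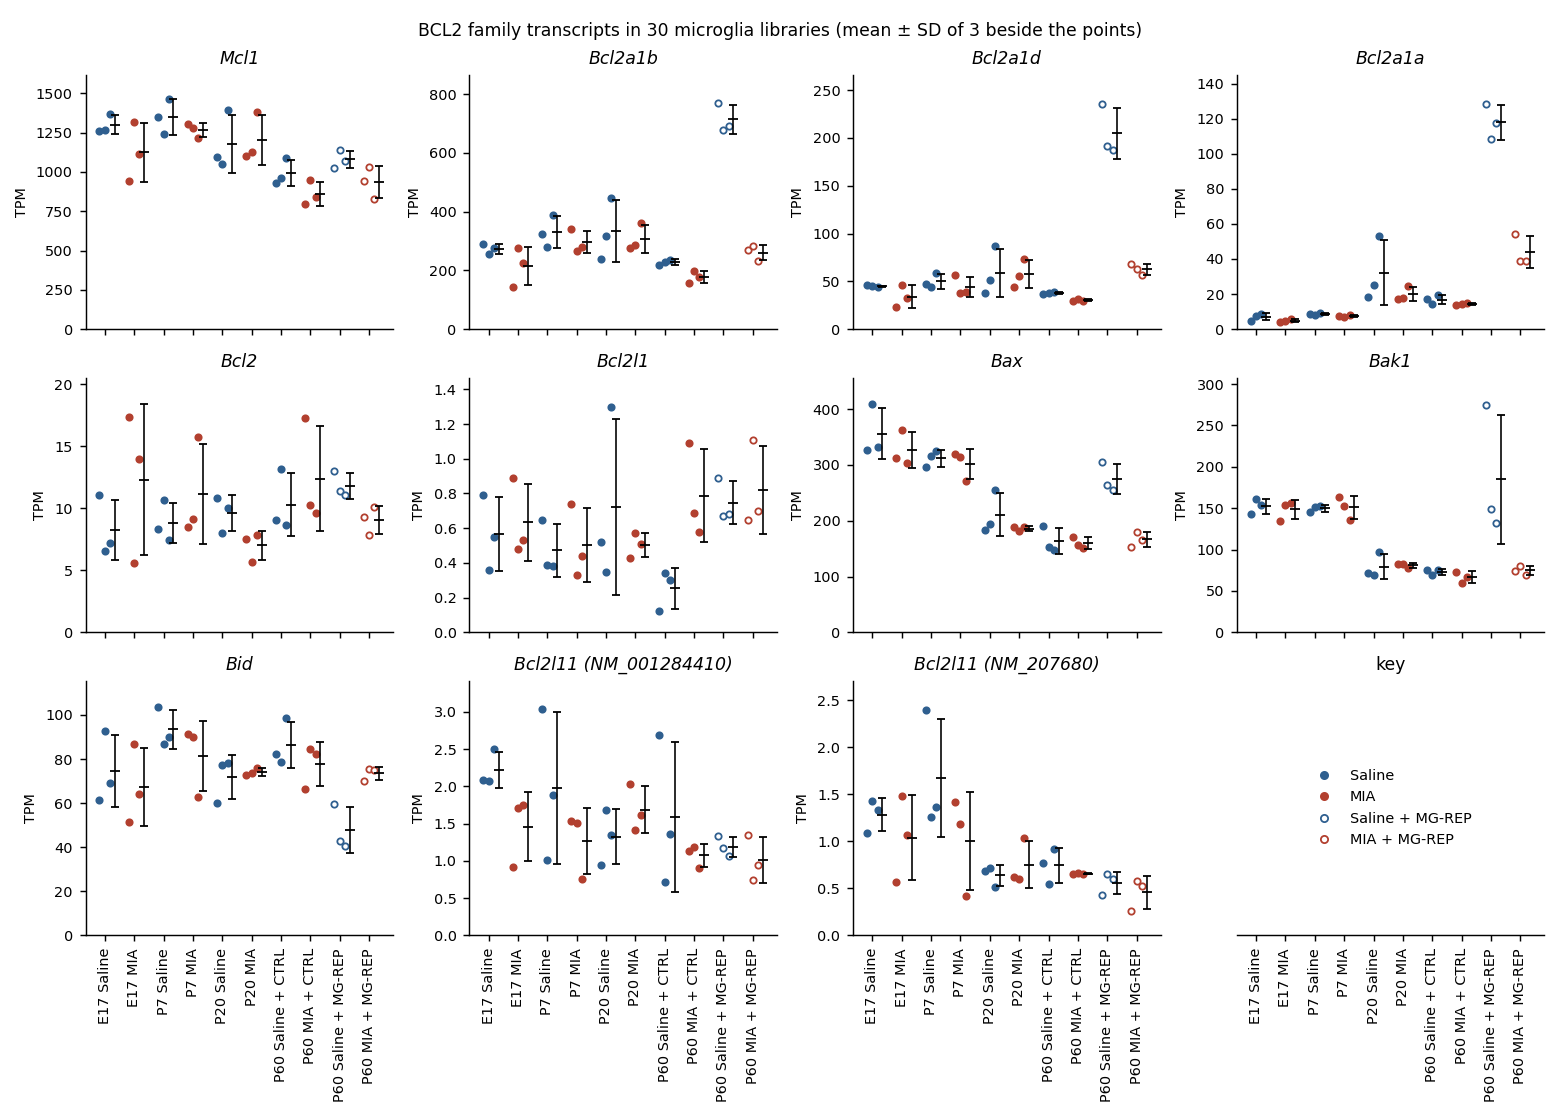
TPM (linear vertical axes, each with its own scale) of the 11 member rows in the 30 libraries, by group, with the mean and SD of 3 libraries beside the points; filled points are CTRL or younger offspring, open points MG-REP. The 3 *Bcl2a1* copies, *Bax* and *Bak1* stand higher in Saline + MG-REP than in the other P60 groups, and *Bid* stands lower.

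Repopulation was first compared with control chow in Saline offspring at P60, to learn how repopulated microglia differ from those that were never depleted. In this comparison 6 of the 11 member rows rose and 1 fell, by limma on log2(TPM + 1) with Benjamini-Hochberg adjustment over all 14225 rows. Of all rows, 26.7% passed this threshold, 11.9% higher and 14.9% lower. The median change of the members was 0.48 on the log2 scale, against -0.14 over all rows. With median-ratio scaling of the libraries, the share of higher rows among all rows called went from 44.3% to 57.5%, while the same count of 7 members was called.

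The 3 copies of *Bcl2a1* rose most. *Bcl2a1a* was at 17.2, 14.2 and 19.2 TPM in Saline + CTRL and at 128, 108 and 117 TPM in Saline + MG-REP. *Bcl2a1d* was at 37.0, 38.0 and 39.4 TPM and then at 236, 192 and 187 TPM. *Bcl2a1b*, the most abundant copy, was at 219, 230.1 and 237 TPM and then at 771, 678 and 693 TPM. Every repopulated library thus stood far above every control library for each copy, with the highest values of all in replicate 1. The log2 differences were 2.74 ± 0.25 (SE, adjusted p = 1.24e-08 by limma) for *Bcl2a1a*, a 6.69-fold change of TPM + 1. They were 2.39 ± 0.24 (adjusted p = 3.62e-08, limma), or 5.24-fold, for *Bcl2a1d*. For *Bcl2a1b* the difference was 1.64 ± 0.19 (adjusted p = 6.41e-07, limma), or 3.11-fold. The sum of the copies, which does not depend on their split but does on whether shared reads were counted, rose from 284 ± 11.1 to 1037 ± 85.7 TPM (SD, n = 3 each; log2 difference 1.86, adjusted p = 1.38e-07, limma). With only the 1 Saline + CTRL library that had *Xist*, the copies differed by 2.70 (*Bcl2a1a*), 2.43 (*Bcl2a1d*) and 1.70 (*Bcl2a1b*). This alternative was chosen after seeing the data and left 1 control library, so only the sizes are given.

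Of the other anti-apoptotic genes, *Mcl1* and *Bcl2* were not called, and *Bcl2l1* was called at values below 1 TPM. *Mcl1* was at 931, 964 and 1086 TPM in Saline + CTRL and at 1028, 1140.1 and 1071 TPM in Saline + MG-REP, with overlapping groups. Its log2 difference was 0.12, with a 95% interval from -0.12 to 0.37 (adjusted p = 0.532, limma). *Bcl2* differed by 0.20 with an interval from -0.39 to 0.79 (adjusted p = 0.683, limma). *Bcl2l1* went from 0.12, 0.34 and 0.30 TPM to 0.89, 0.67 and 0.68 TPM, a log2 difference of 0.48 ± 0.17 (adjusted p = 0.0386, limma). These groups do not overlap, but values below 1 TPM rest on a few reads, and the call was lost when any 1 of the 6 libraries was left out (differences of 0.40 to 0.53, adjusted p 0.0502 to 0.154) and with *Xist* as a covariate (0.45, adjusted p = 0.147).

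The weight of the anti-apoptotic genes shifted accordingly. *Mcl1* held 77.1% ± 0.875 of their summed TPM in Saline + CTRL but 50.7% ± 3.21 after repopulation (SD, n = 3 each). The *Bcl2a1* copies held 22.1% ± 0.711 and 48.7% ± 3.17. In the 8 other groups *Mcl1* held a mean of between 71.2% and 81.0%, and the next highest mean share of the *Bcl2a1* copies was 28.0% ± 1.05, in MIA + MG-REP. *Bcl2* and *Bcl2l1* together held between 0.367% and 1.80% in every library. The anti-apoptotic sum was 1288 ± 91.7 TPM in Saline + CTRL and 2129 ± 48.8 TPM in Saline + MG-REP.

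**Figure D2:**
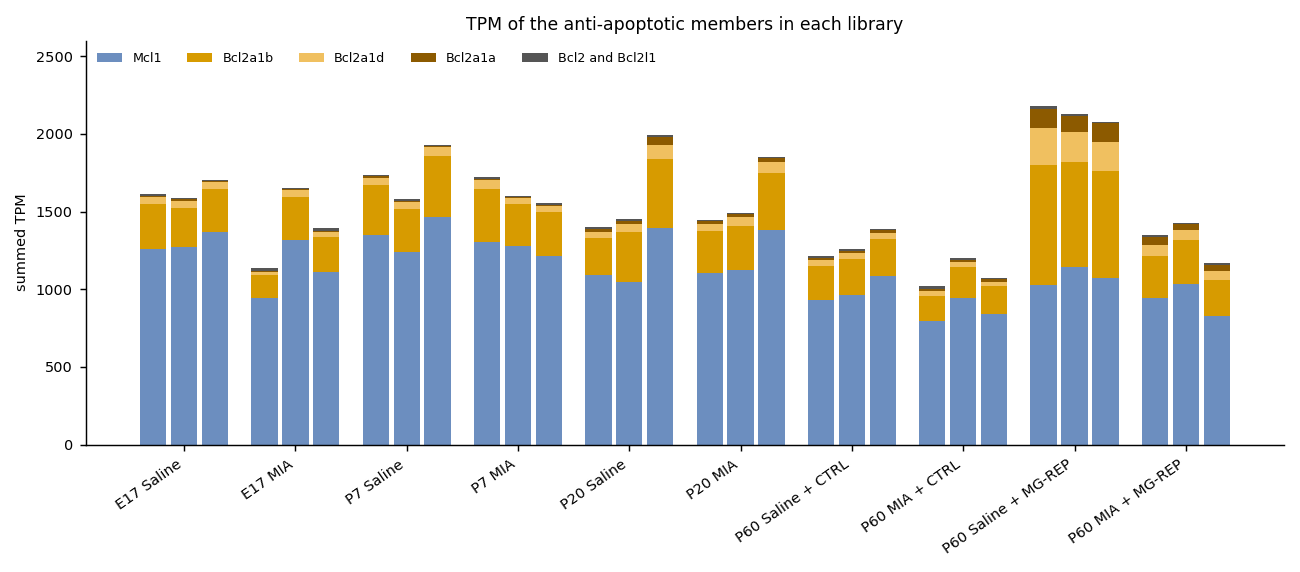
Summed TPM (linear axis from 0) of the anti-apoptotic members in each of the 30 libraries, 3 bars per group in the order of the replicates, with each bar divided by gene. *Mcl1* is the larger part in the younger, CTRL and MIA + MG-REP libraries, and the *Bcl2a1* parts grow to a mean of 48.7% in Saline + MG-REP.

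Within the *Bcl2a1* family the copies did not grow in proportion. *Bcl2a1b* held 80.6% ± 0.786 of the family in Saline + CTRL but 68.9% ± 0.856 after repopulation. The part of *Bcl2a1a* went from 5.94% ± 0.808 to 11.4% ± 0.343 and that of *Bcl2a1d* from 13.5% ± 0.107 to 19.7% ± 1.01 (SD, n = 3 each). These parts depend on the unknown sharing of reads.

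Both effector genes also rose. *Bax* was at 190.4, 153 and 148 TPM in Saline + CTRL and at 305, 264 and 256 TPM in Saline + MG-REP. *Bak1* was at 75.1, 69.1 and 74.8 TPM and then at 274, 149 and 132 TPM. For both genes all repopulated libraries lay above all controls, and for *Bak1* replicate 1 was far above the other two. The log2 differences were 0.75 ± 0.12 (adjusted p = 4.22e-05, limma) for *Bax* and 1.25 ± 0.17 (adjusted p = 4.40e-06, limma) for *Bak1*. Without replicate 1 of Saline + MG-REP, *Bak1* still differed by 0.93 (adjusted p = 4.01e-06, limma). With *Xist* as a covariate in limma, the differences were 0.57 for *Bax* (adjusted p = 0.00551) and 1.15 for *Bak1* (adjusted p = 0.000448).

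*Bid*, which links death receptors to the mitochondria, was the only member that fell. It was at 82.5, 78.7 and 98.4 TPM in Saline + CTRL and at 59.7, 43.0 and 40.5 TPM in Saline + MG-REP, without overlap. The log2 difference was -0.86 ± 0.18 (adjusted p = 0.000875, limma). With *Xist* as a covariate it was -0.74 (adjusted p = 0.0239, limma). With only the 1 Saline + CTRL library that had *Xist* it was -0.80. A single control library has no spread of its own, so only the size is given for that fit. The rows of *Bcl2l11*, whose product BIM is the main trigger of death on loss of growth factors in many blood cells, differed by -0.16 (NM_207680, adjusted p = 0.589) and -0.17 (NM_001284410, adjusted p = 0.661) by limma.

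The same comparison in MIA offspring was much smaller. Only *Bcl2a1a* and *Bcl2a1d* were called, both higher, where 0.555% of all rows passed, 0.387% of all rows being higher. *Bcl2a1a* was at 13.6, 14.3 and 15.0 TPM in MIA + CTRL and at 54.4, 38.8 and 39.0 TPM in MIA + MG-REP, a log2 difference of 1.54 ± 0.25 (adjusted p = 0.00167, limma). With only the CTRL library that had *Xist* the difference was 1.605 and did not pass (adjusted p = 0.116, limma). *Bcl2a1d* was at 29.7, 31.4 and 29.7 TPM and then at 68.2, 63.1 and 56.4 TPM, a difference of 1.02 ± 0.24 (adjusted p = 0.0453, limma). *Bcl2a1d* lost its call when any 1 of the 6 libraries was left out, with differences of 0.96 to 1.09 (adjusted p 0.0957 to 0.249, limma). It also lost it with *Xist* as a covariate (1.07, adjusted p = 0.255) and with median-ratio scaling (1.083, adjusted p = 0.109), so that the differences stayed close to the one above.

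*Bcl2a1b* was at 158, 197 and 178 TPM in MIA + CTRL and at 269, 283 and 231 TPM in MIA + MG-REP. The groups do not overlap, yet the difference of 0.55 did not pass (95% interval 0.17 to 0.93, adjusted p = 0.411, limma). All 3 copies were without overlap and higher, as were 6.74% of all rows. The sum of the copies was 223 ± 20.7 and 367 ± 35.9 TPM (SD, n = 3 each; log2 difference 0.72, adjusted p = 0.154, limma). *Bax* differed by 0.06 (95% interval -0.18 to 0.29), *Bak1* by 0.17 (-0.16 to 0.50), *Bid* by -0.07 (-0.43 to 0.28) and *Mcl1* by 0.12 (-0.13 to 0.36), none of which passed.

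The effect of repopulation in MIA offspring was then tested directly against that in Saline offspring. This difference of effects passed for 5 of the 11 rows, all lower in MIA offspring, against 10.5% of all rows, 6.09% lower. It was -1.37 ± 0.33 (adjusted p = 0.00811) for *Bcl2a1d*, -1.09 ± 0.28 (adjusted p = 0.0110) for *Bcl2a1b* and -1.20 ± 0.36 (adjusted p = 0.0313) for *Bcl2a1a*, by limma. It was -0.69 ± 0.17 (adjusted p = 0.00936) for *Bax* and -1.08 ± 0.24 (adjusted p = 0.00408) for *Bak1*. *Bid* missed the threshold at 0.79 ± 0.26 (adjusted p = 0.0512, limma). For *Mcl1* the difference was -0.00, with a 95% interval from -0.35 to 0.34. The call for *Bcl2a1a* was lost when any 1 of 7 libraries was left out, with adjusted p from 0.0548 to 0.0825 by limma. These were replicates 1 and 2 of Saline + CTRL, 2 and 3 of MIA + CTRL, 1 of Saline + MG-REP and 2 and 3 of MIA + MG-REP. With only the 2 CTRL libraries that had *Xist*, an alternative chosen after seeing the data, none of the 5 passed, although the values stayed between -0.57 for *Bax* and -1.39 for *Bcl2a1d*. With 1 control library per group left, the spread had to be taken from the other groups.

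Set against each other, the repopulated libraries of MIA and Saline offspring differed for 6 member rows, where 22% of all rows passed. MIA + MG-REP was lower for *Bcl2a1d* (log2 difference -1.69, adjusted p = 9.30e-06), *Bcl2a1b* (-1.45, adjusted p = 6.01e-06), *Bcl2a1a* (-1.42, adjusted p = 0.000212), *Bak1* (-1.22, adjusted p = 9.77e-06) and *Bax* (-0.72, adjusted p = 0.000103), by limma. It was higher for *Bid* (0.63, adjusted p = 0.0135, limma). *Bid* was at 70.1, 75.6 and 74.9 TPM in MIA + MG-REP, above all 3 Saline + MG-REP libraries. *Bax* was at 154, 181 and 165 TPM there, within the range of the 6 CTRL libraries (148 to 190 TPM). *Bak1* was at 74.0, 80.4 and 69.7 TPM, with 1 library above the CTRL range of 59.1 to 75.1 TPM. In this comparison, all 6 libraries had *Xist* and none had Y genes above 0.62 TPM.

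**Figure D3:**
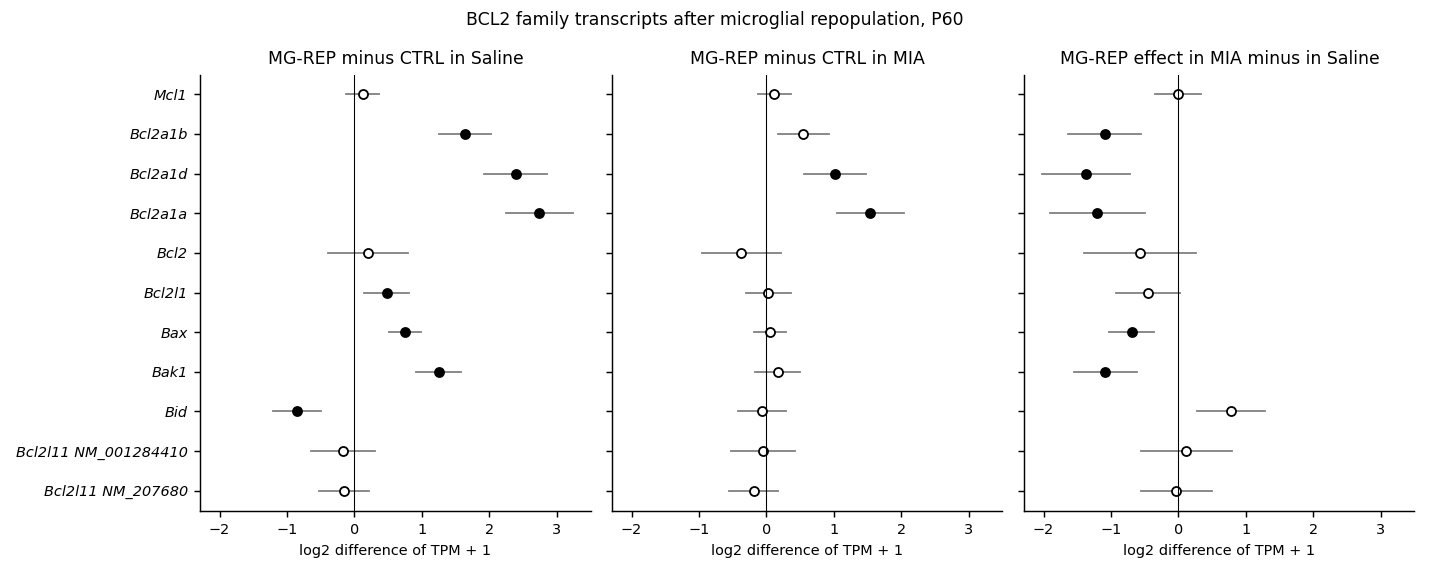
Differences of log2(TPM + 1) with 95% intervals for the 11 member rows: MG-REP minus CTRL in Saline offspring, the same in MIA offspring, and the second minus the first; filled points have an adjusted p under 0.05. The points of the *Bcl2a1* copies, *Bax* and *Bak1* lie right of 0 on the left panel and left of 0 on the right panel.

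Other cells and states moved with these groups. All 17 measured mitotic genes of a list of 21 rose in Saline + MG-REP (median log2 difference 3.82) and none was called in MIA + MG-REP. Their sum was 2377, 1006 and 883 TPM in Saline + MG-REP, 162 to 174 TPM in Saline + CTRL and 126 to 144 TPM in MIA + MG-REP. Within Saline + MG-REP, all member rows except *Mcl1* and *Bcl2l11* (NM_207680) were highest in replicate 1, the library with the highest mitotic sum. These included *Bid*, which had fallen in this group. Replicate 1 also had 309 rows at 0 TPM, against 165 and 154 in replicates 2 and 3. Of the 7 microglia markers, 6 fell in Saline + MG-REP and none was called in MIA + MG-REP, with sums of 18158 to 20067 TPM in Saline + MG-REP and 26013 to 37300.2 TPM in Saline + CTRL. Of 12 measured neutrophil and monocyte genes, only *Ccr2* was called in Saline + MG-REP (log2 difference 1.57, adjusted p = 0.000166, limma). The sum of this list was 123, 5508 and 377 TPM in Saline + MG-REP, 780 to 921 TPM in Saline + CTRL and 543 to 974 TPM in MIA + MG-REP. The *Bcl2a1* sums in the same Saline + MG-REP libraries were 1135, 978 and 998 TPM, in the same order. Without the library at 5508 TPM, 6 members were called in Saline offspring, *Bcl2l1* being lost. Of 7 measured border macrophage genes, *Siglec1* and *Pf4* rose in Saline + MG-REP and *Cd163*, at a mean of 0.02 TPM there, fell, while *Mrc1* was not called (195 TPM in Saline + CTRL and 186 TPM after repopulation). Of 18 rows of immediate early genes, which respond fast to stimulation and to handling of cells, 12 fell and 3 rose in Saline + MG-REP, and 1 rose in MIA + MG-REP. Their sum was 20073, 28275 and 26737 TPM in Saline + MG-REP, 42239 to 56644 TPM in Saline + CTRL and 33036 to 44587 TPM in MIA + MG-REP. Endothelial rows fell in 3 of 7 cases and T, NK and B cell rows in 4 of 7 in Saline offspring, with none called in MIA offspring. Their sums were 297 to 620 and 2.05 to 11.3 TPM after repopulation, against 785 to 1260.2 and 8.72 to 28.1 TPM in Saline + CTRL. The part of these cells and states in the changes of the members was not tested.

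**Figure D4:**
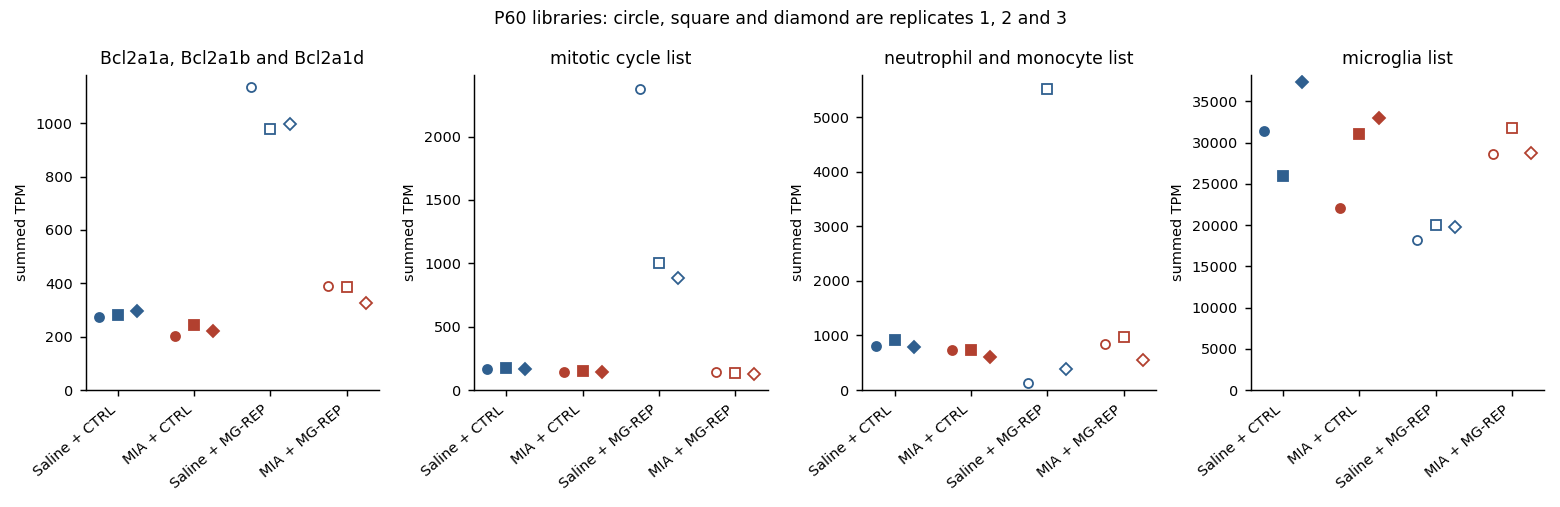
Summed TPM (linear axes from 0) in the 12 P60 libraries of the 3 *Bcl2a1* copies and of the mitotic, neutrophil and monocyte, and microglia marker lists; circle, square and diamond are replicates 1, 2 and 3. Within Saline + MG-REP, the square has 5508 TPM of neutrophil and monocyte genes and the circle has the highest *Bcl2a1* sum.

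The further genes of the pathway were counted from lists. Of 16 other genes of the BCL2 family, 12 were measured. In Saline + MG-REP, *Bcl2a1c*, a more distant copy, rose by 1.81 ± 0.51 on the log2 scale (adjusted p = 0.00974, limma) and *Pmaip1*, which encodes the MCL1 antagonist NOXA, by 1.20 ± 0.21 (adjusted p = 0.000115, limma). *Pmaip1* was at 92.6 to 116 TPM in Saline + CTRL, 210 to 253 TPM in Saline + MG-REP and 75.8 to 112 TPM in MIA + MG-REP, and its effect was smaller in MIA offspring (difference of effects -1.07, adjusted p = 0.0203, limma). *Bnip3l*, a mitophagy receptor, fell by 0.63 (adjusted p = 0.00125, limma), and the BH3-only *Bmf* fell by 0.76 (adjusted p = 0.0367, limma). The *Bmf* row was low, with means of 2.77 TPM in Saline + CTRL and 1.26 TPM in Saline + MG-REP. None of the 12 was called in MIA offspring, where 0.555% of all rows passed.

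Of 34 rows of 30 measured genes (of 32 listed) of caspases, death receptors, inhibitors and p53 targets, 4 rose and 3 fell in Saline + MG-REP. This was a smaller share than the 26.7% of all rows called. None was called in MIA offspring, where 0.555% of all rows passed. The p53 target and cell cycle inhibitor *Cdkn1a* rose on both of its rows, by 2.08 ± 0.27 (NM_007669, adjusted p = 1.76e-06) and 1.10 ± 0.20 (NM_001111099, adjusted p = 0.000173), and *Ccng1*, another p53 target, rose by 0.70 ± 0.12 (adjusted p = 0.000116), by limma. *Cflar*, the decoy that blocks caspase 8, fell by 0.85 ± 0.24 (adjusted p = 0.0109), *Htra2*, a mitochondrial protease, by 0.57 (adjusted p = 0.0228) and the adaptor *Fadd* by 0.47 (adjusted p = 0.0324), by limma. The *Cflar* row (NM_009805) was low, with means of 3.73 TPM in Saline + CTRL and 1.59 TPM in Saline + MG-REP. The difference of effects passed for *Cdkn1a* (NM_007669, -2.07, adjusted p = 0.000596), for *Ccng1* (-0.66, adjusted p = 0.0156) and for *Cflar* (1.07, adjusted p = 0.0458). Of 6 listed partners of the family at the mitochondrial membrane, 4 were measured. Among them the channels *Vdac1* and *Vdac2*, which bind members of the family, rose by 0.60 and 0.49 in Saline + MG-REP (adjusted p = 0.000966 and 0.000940, limma). Of all rows, 11.9% were called higher there. Of 16 rows of the NF-kB pathway, 5 rose, where 11.9% of all rows were called higher and 14.9% lower. The cytokines *Il1b* and *Tnf* were up by 3.01 and 1.88 and the subunit *Rel* by 0.70, while the subunit *Rela* fell by 0.57.

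Maternal immune activation itself was compared with saline at each age, the contrast that asks what a prenatal immune response leaves behind. No member row passed at E17, P7, P20 or P60 on control chow, and limma called 0 of all rows at each age (0% at each of the 4 ages). At an unadjusted p under 0.05 there were 585 rows at E17, 335 at P7, 457 at P20 and 256 at P60. Groups without overlap were found for 1 member row at E17 (6.05% of all rows), 1 at P7 (4.12%), 1 at P20 (9.69%) and 3 at P60 (5.93%). At E17 it was *Bcl2l11* (NM_001284410), at 2.09, 2.07 and 2.50 TPM in Saline and no more than 1.75 TPM in MIA offspring. At P7 it was *Bcl2a1a* (8.30 to 8.98 TPM in Saline, 6.77 to 8.01 TPM in MIA) and at P20 *Bcl2* (8.01 to 10.8 and 5.68 to 7.88 TPM).

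At P60 on control chow *Bcl2a1b* was lower in MIA offspring by 0.36, with a 95% interval from -0.75 to 0.02, and *Bcl2a1d* by 0.32 (interval -0.79 to 0.14). *Bcl2l1* was higher, at 1.09, 0.69 and 0.58 TPM against 0.12, 0.34 and 0.30 TPM, by 0.51 (interval 0.17 to 0.84, unadjusted p = 0.00689, adjusted p = 1, limma). None of these 3 differences passed. For *Mcl1* the interval at P60 reached from -0.45 to 0.04 and for *Bax* from -0.27 to 0.21.

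The members were then followed through development on control chow, with the Saline and MIA offspring of an age averaged. From E17 to P7 no member row passed, against 10.8% of all rows, and the count at an unadjusted p under 0.05 was 3492 of all rows. *Bcl2a1b* came nearest, with a rise of 0.38 (95% interval 0.11 to 0.65, adjusted p = 0.0792, limma). *Bak1* differed by -0.00 (interval -0.24 to 0.24).

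From P7 to P20 4 member rows were called, against 50.7% of all rows. Both effectors fell. *Bax* ranged from 304 to 409 TPM at E17 (median 330 of 6 libraries), from 271 to 326 TPM at P7 (median 315), from 181 to 255 TPM at P20 (median 188) and from 148 to 190 TPM at P60 (median 155). *Bak1* ranged from 135 to 161 TPM at E17 (median 154), from 136 to 164 TPM at P7 (median 152), from 69.3 to 96.7 TPM at P20 (median 79.9) and from 59.1 to 75.1 TPM at P60 (median 71.2). For both genes every P7 library lay above every P20 library. The log2 differences were -0.63 ± 0.09 (adjusted p = 1.39e-06, limma) for *Bax* and -0.91 ± 0.12 (adjusted p = 1.21e-06, limma) for *Bak1*, and both passed within Saline and within MIA offspring alone.

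*Bcl2a1a* rose in the same interval. It was at 4.20 to 8.72 TPM at E17 (median 5.22), 6.77 to 8.98 TPM at P7 (median 8.16), 17.5 to 53.2 TPM at P20 (median 21.5) and 13.6 to 19.2 TPM at P60 on control chow (median 14.6). The groups at P7 and P20 do not overlap, and the log2 difference was 1.47 ± 0.18 (adjusted p = 3.49e-07, limma). The sum of the 3 copies, dominated by *Bcl2a1b*, differed by 0.11 (adjusted p = 0.547, limma), so that the rise was that of the least abundant copy, and the part of read sharing in it was not tested. *Bcl2l11* (NM_207680) fell by 0.43 (adjusted p = 0.00990, limma), a call made in Saline (-0.68, adjusted p = 0.00636) and not in MIA offspring alone (-0.17, adjusted p = 0.520). This row was low, with medians of 1.315 TPM at P7 and 0.655 TPM at P20. The other *Bcl2l11* row (NM_001284410) differed by -0.03 (adjusted p = 0.912, limma).

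From P20 to P60 on control chow 5 member rows were called, all lower, against 12% of all rows and 7.71% lower. They were *Bcl2a1b* (-0.64 ± 0.14, adjusted p = 0.00359), *Bcl2a1d* (-0.70 ± 0.17, adjusted p = 0.00725), *Mcl1* (-0.36 ± 0.09, adjusted p = 0.0101), *Bax* (-0.29 ± 0.09, adjusted p = 0.0289) and *Bcl2a1a* (-0.60 ± 0.18, adjusted p = 0.0302), by limma. *Bcl2a1b* was at 239 to 448 TPM at P20 and 158 to 237 TPM at P60, the only one of the 5 without overlap. This count was not stable. It was 0 in Saline and 3 in MIA offspring alone, 2 with median-ratio scaling, under which the share of higher rows among all rows called went from 35.5% to 49.4%, and 1 with *Xist* as a covariate. It fell to 3 without replicate 3 of P20 Saline or of P20 MIA, and without replicate 2 of Saline + CTRL or of MIA + CTRL. All P20 libraries had *Xist* and no Y genes, and 4 of the 6 P60 CTRL libraries were the reverse.

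Over the whole span from E17 to P60, 5 member rows were called, against 61.7% of all rows. *Bax* differed by -1.07 (adjusted p = 1.55e-10), *Bak1* by -1.10 (adjusted p = 3.22e-08), *Mcl1* by -0.38 (adjusted p = 0.000665) and *Bcl2l11* (NM_207680) by -0.33 (adjusted p = 0.0329), while *Bcl2a1a* differed by 1.28 (adjusted p = 1.32e-06), by limma. The other *Bcl2l11* row (NM_001284410) was not called over this span. The summed *Bcl2a1* copies differed by -0.17 (adjusted p = 0.305, limma). The summed TPM of *Bax* and *Bak1* was 508 ± 53.7 in Saline offspring at E17, had come down to 237 ± 24.7 for Saline + CTRL, and was 460 ± 104 for Saline + MG-REP (SD, n = 3 each). The mitotic list also fell from P7 to P20, on all 17 of its genes (median log2 difference -4.30), and its part in the fall of the effectors was not tested.

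**Figure D5:**
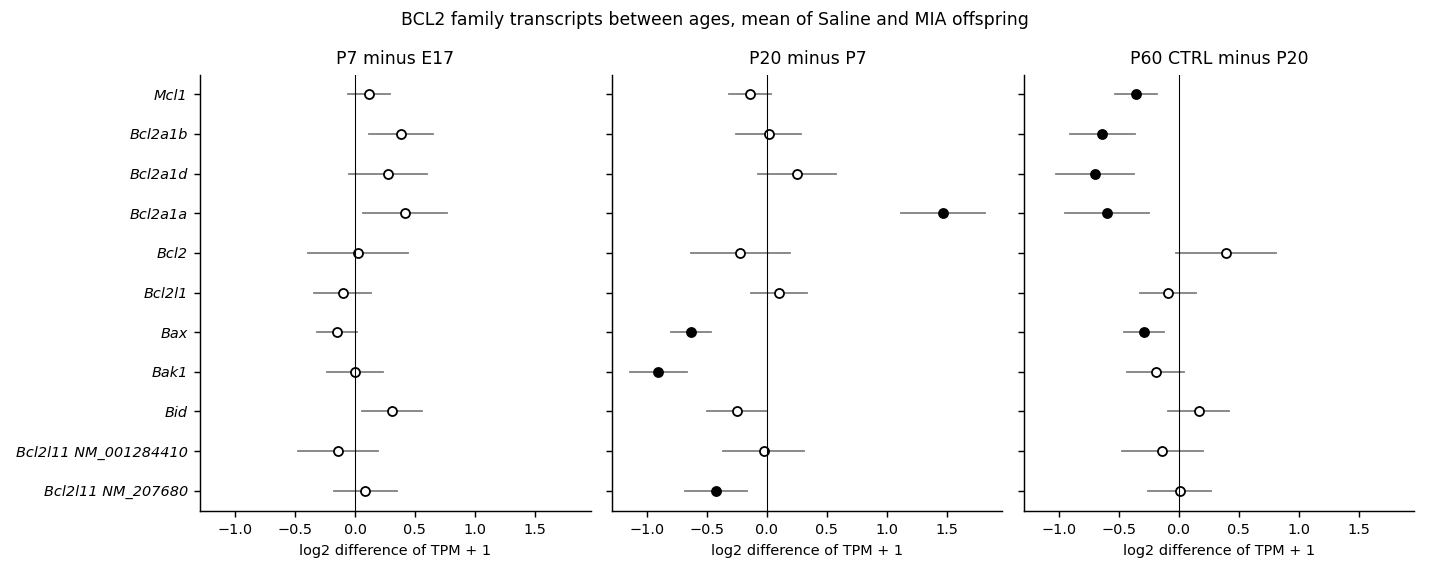
Differences of log2(TPM + 1) with 95% intervals between successive ages for the 11 member rows, Saline and MIA offspring averaged and P60 on control chow; filled points have an adjusted p under 0.05. *Bax* and *Bak1* lie left of 0 and *Bcl2a1a* lies right of 0 from P7 to P20.

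Among other members of the family, *Bcl2l2*, the survival gene of BCL-W, was called higher at P60 than at E17 by 2.08 (adjusted p = 3.83e-07), and *Pmaip1* was lower by 1.21 on the log2 scale (adjusted p = 2.02e-07), by limma. *Bcl2l2* varied from 50.2 to 177 TPM within Saline + CTRL. From E17 to P60 on control chow in Saline offspring, summed astrocyte markers went from a mean of 160 to 573 TPM. Oligodendrocyte lineage markers went from 38.1 to 668 TPM and neuron markers from 177 to 58.8 TPM. From P7 to P20, 3 of the 12 rose and 5 fell, the largest being *Hrk* (1.77), a BH3-only gene of neurons, and *Bok* (-1.66), an effector-like gene. The part of other brain cells in these changes with age was not tested. Of the 34 rows of the wider pathway, 3 rose and 10 fell in that interval, a smaller share than the 50.7% of all rows, with the death receptors *Fas* at 1.32 and *Tnfrsf10b* at -1.57 and *Cdkn1a* (NM_007669) at -1.47. From P20 to P60 none rose and 4 fell, about the share over all rows (12%). Among them were *Trp53* by 0.69 and the inhibitors of apoptosis *Birc3* by 0.61 and *Birc2* by 0.57. The *Trp53* (NM_001127233) and *Birc2* (NM_001291503) rows were low. Their group means at these ages on control chow were 1.10 to 2.47 TPM and 0.483 to 1.39 TPM, and need not be those of the genes.

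Across the 10 group means, which share no library, the profiles of members fell into a few shapes. *Bcl2a1b* and *Bcl2a1d* were alike (Pearson r = 0.952), as were *Bax* and *Bak1* (r = 0.942). *Bcl2a1a* was closer to *Bcl2a1d* (r = 0.833) than to *Bcl2a1b* (r = 0.671). *Bid* ran against *Bcl2a1d* (r = -0.751). Of 12643 other rows with a mean of at least 1 TPM, those most like *Bcl2a1a* were *Cxcl16* (r = 0.982), *BC147527* and *Lgals3bp*, those most like *Bcl2a1b* were *Ccr1* (r = 0.971), *Ifngr2* and *Ctsc*, and those most like *Bcl2a1d* were *Siglec1* (r = 0.969), *Ctsc* and *Cst7*. *Bax* was most like *Arhgdia* and *Pfn1* (r = 0.996 each), and *Bak1* most like *Mpp1* (r = 0.997) and *Mcm6* (r = 0.994), a subunit of the replicative helicase. These values are descriptions of 10 points, chosen as the highest among many.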

How the data were processed

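RNA of CD11B-isolated microglia was sequenced by the authors from 30 libraries, 3 in each of 10 groups, as single-end reads of 40 bases from poly(A) RNA without strand information. Reads were aligned to mm10 with Rsubread and counted with featureCounts, and genes with low counts were removed by the authors. The deposited values are TPM, transcript abundances that the authors scaled by length and library size, and the step from counts to TPM and the treatment of reads that match several transcripts are not given in the sources used here. The authors' module assignments were not used, and 1 microglia marker is not reported here.

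The 11 member rows were found by symbol. The members and gene lists were chosen with earlier results of these data known. TPM were fitted as log2(TPM + 1) with limma 3.58.1 (R 4.3.3) over 14225 rows with 10 group means and a trended prior variance, and two-sided p-values had the Benjamini-Hochberg adjustment over all rows, with a threshold of 0.05. Fold changes are of TPM + 1 and understate those of low genes. Intervals are ± 1.96 SE. The alternatives were a pseudocount of 0.1, a mean of at least 1 TPM, median-ratio scaling, a replicate block, *Xist* as a covariate, fits of the groups compared, each arm alone, the *Bcl2a1* copies summed and leaving out each library. A fit without the 4 P60 CTRL libraries that lack *Xist* was added after seeing the data. Depth was estimated from the steps between low values, of which 71.7% to 78.9% were near whole reads, so no counts were recovered and no count test was run. The fit was first tested on simulated data. Gene coordinates and promoter sequences were taken from RefSeq (GRCm38.p6). Transcript sequences, including those cut into 40-base reads, were taken from GENCODE. Sequences were aligned with Biopython 1.88, and figures were drawn with matplotlib 3.10.9.

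The libraries are numbered alike in each group. Whether equal numbers pair libraries was checked by the correlation of their deviations from the group means. All 3 correlations passed 0.1 in the comparison of MIA with Saline at P20 (0.245, 0.112 and 0.138) and in no other comparison. Single correlations of MIA with Saline were higher elsewhere, such as 0.671 at E17 and 0.653 at P60 on control chow. The check therefore does not settle whether the numbers pair libraries. At P20 the replicate block called no member, as did the fit without it. Genes named from the lists are the largest changes of each, up to 3 in each direction, and the rows most like a member are among its 3 highest. The microglia markers and *Mrc1* were named outside this rule, *Mrc1* after its values were seen.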

Additional observations from a re-analysis of the deposited data

Results flagged for a closer look

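The effect of repopulation differed between Saline and MIA offspring in the test of the difference itself for 5 members, on the log2 scale and as MIA minus Saline. The difference was -1.37 for *Bcl2a1d*, -1.09 for *Bcl2a1b*, -1.20 for *Bcl2a1a*, -0.69 for *Bax* and -1.08 for *Bak1*, each lower in MIA offspring and each past the threshold by limma. The 3 *Bcl2a1* copies share most of their reads and are not independent of each other. The CTRL libraries of both arms held the same mix of 1 library with *Xist* and 2 without it.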

How the results depend on the processing

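The number of members called from P20 to P60 moved from 5 to 2 with median-ratio scaling, 1 with *Xist* as a covariate, 3 with only the groups compared, 0 in Saline offspring alone, 3 in MIA offspring alone, 0 with only the P60 CTRL libraries that had *Xist*, and 3 to 5 with 1 library left out. Repopulation in MIA offspring called 2 members, and 1 with median-ratio scaling, 1 with the *Xist* covariate, 0 with only the CTRL libraries that had *Xist* and 1 whichever library was left out. The difference of effects called 5 members and 0 with only those libraries. From E17 to P7 the count was 0, and 0 to 2 with 1 library left out: 2 without replicate 2 of E17 MIA and 1 without replicate 3 of P7 MIA. *Bcl2a1a* from E17 to P60 turned from 1.28 to -0.17 when the copies were summed, since *Bcl2a1b* dominates the sum. Other causes were not tested. In Saline offspring repopulation called 7 members, and 5 to 7 under every alternative.

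Over all rows, the *Xist* covariate lowered the count from P20 to P60 from 1700 to 365 and that of repopulation in MIA offspring from 79 to 30. With only the CTRL libraries that had *Xist*, the counts were 511 from P20 to P60, 1886 against 3805 for repopulation in Saline offspring, 29 in MIA offspring and 638 against 1496 for the difference of effects. Fits of only the groups compared gave 868 against 1535 from E17 to P7 and 1911 for repopulation in Saline offspring. Saline and MIA offspring alone gave 615 and 340 rows from E17 to P7, and 499 and 370 from P20 to P60. With the replicate block the difference of effects called 6 members in place of 5, and every other comparison the same number, 7 for repopulation in Saline offspring. Whether equal numbers pair the libraries was not settled. Over single members, leaving out 1 library kept 278 calls, lost 40 and reversed 0. The *Bcl2l1* and *Bcl2l11* rows, with at most 46.0 estimated reads in a library, are limited by depth.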
